A study of Mus musculus with 12 samples.

Results

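Cholesterol synthesis in the liver was read here through 7 genes: Srebf2, the transcription factor that drives the pathway, and 6 of its enzymes, Hmgcs1, Idi1, Fdps, Sqle, Lss and Cyp51. They were chosen as every probe whose accession maps to 1 of these symbols, which gave 8 probes for 7 of the 20886 genes named on the array. Srebf2 had 2 probes and each enzyme had 1, and all 8 were well above background on all 12 arrays. Liver RNA came from 12 female C57BL/6N mice, bought at 6 weeks of age and killed after 6 months on diet, with 3 mice for each diet. Control mice (Ctrl) ate a normal formula diet whose carbohydrate was corn starch with sucrose. Mice of the RS group ate that diet with resveratrol, a plant stilbene, mixed in. In the DJ diet, rice of the cultivar Dongjin took the place of the starch and sucrose, and in the DJ526 diet the rice was DJ526, a Dongjin line that makes resveratrol from a transferred biosynthesis gene. DJ526 and DJ therefore differ in the transferred gene as well as in resveratrol, and mice were housed in groups by cage, so that cage and diet cannot be told apart. The livers were measured whole, where fewer cells of a type and less RNA per cell cannot be told apart.

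Cells make cholesterol from acetyl-CoA. When sterols in the membrane of the endoplasmic reticulum run low, SCAP escorts the SREBP2 precursor to the Golgi, where the proteases encoded by Mbtps1 and Mbtps2 release its active part, which enters the nucleus and binds sterol regulatory elements in the promoters of the pathway genes. INSIG proteins hold SCAP back when sterols are plentiful. The liver is a major site of this synthesis, and its output falls on fasting and rises on feeding.

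A value below is the log2 of the array's processed signal minus the log2 of the 75th percentile of all probes on that array, so that 0 is the 75th percentile and 1 unit is a 2-fold difference. Levels of different probes are not set against each other, since probes differ in how well they bind. On the 12 arrays 73.0% to 80.8% of spots were well above background and none was saturated. All 5 hepatocyte markers were well above background on every array, and their summed signal was 1527 to 1903 times the 75th percentile. The arrays lay on 3 slides, the first with the 3 Ctrl mice and DJ replicate 1, the second with mice 2 and 3 of DJ beside mice 1 and 2 of RS, and the third with RS replicate 3 and the 3 DJ526 mice. Groups follow the sample labels, although a sample table supplied with the study pairs the RS and DJ arrays the other way round.

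Because the enzymes were found to move together, the promoters of 3 of the genes are shown: Hmgcs1, whose window held a sterol regulatory element core, Cyp51, which followed the other genes most closely, and Srebf2, which followed them least. RefSeq windows (build GRCm38.p6) of 300 bases, from 250 before to 50 after the start of the gene, were given for 5 of the 7 genes, namely Srebf2, Hmgcs1, Idi1, Lss and Cyp51. Capitals mark the sterol regulatory element core TCACNCCAC (N is any base) and the CCAAT box CCAAT, the binding motif of NF-Y, on either strand, where ATTGG is the CCAAT box of the opposite strand. The windows are chr13:119690101-119690400 on the plus strand for Hmgcs1, chr5:4104648-4104947 on the minus strand for Cyp51 and chr15:82147019-82147318 on the plus strand for Srebf2.
Hmgcs1: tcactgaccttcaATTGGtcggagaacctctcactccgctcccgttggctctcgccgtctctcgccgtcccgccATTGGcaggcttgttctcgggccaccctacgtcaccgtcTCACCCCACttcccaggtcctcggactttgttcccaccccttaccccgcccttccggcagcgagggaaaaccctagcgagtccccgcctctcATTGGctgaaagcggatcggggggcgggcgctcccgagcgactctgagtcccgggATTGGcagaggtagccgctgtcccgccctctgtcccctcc
Cyp51: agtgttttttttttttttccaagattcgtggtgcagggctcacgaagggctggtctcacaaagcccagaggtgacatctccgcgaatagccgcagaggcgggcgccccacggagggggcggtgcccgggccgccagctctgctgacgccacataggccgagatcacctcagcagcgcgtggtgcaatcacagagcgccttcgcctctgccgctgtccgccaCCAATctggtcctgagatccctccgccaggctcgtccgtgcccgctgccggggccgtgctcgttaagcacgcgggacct
Srebf2: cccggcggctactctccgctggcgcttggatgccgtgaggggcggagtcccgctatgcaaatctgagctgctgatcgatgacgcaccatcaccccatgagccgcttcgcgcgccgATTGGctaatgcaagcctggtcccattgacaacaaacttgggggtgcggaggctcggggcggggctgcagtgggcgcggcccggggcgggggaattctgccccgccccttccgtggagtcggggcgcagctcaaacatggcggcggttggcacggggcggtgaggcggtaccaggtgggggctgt
The core TCACCCCAC of Hmgcs1 begins at base -137 counted from the start. This motif was in 1 of the 5 windows and in 1.24% of all 32851 windows of the table. A CCAAT box was in 5 of the 5 windows (4 copies in Hmgcs1, 2 in Idi1 and 1 each in Srebf2, Lss and Cyp51) against 37.4% of all windows. The GC box GGGCGG, the motif of Sp1, was in 5 of 5 against 35.7%, and the E box CACGTG was in 0 of 5 against 7.15%. None of these motifs overlapped another in the 5 windows. A match describes these letters only, and a window without one says nothing of the factor, whose motifs may lie elsewhere or differ by a letter.

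Srebf2, the regulator, varied less between mice than the 6 enzymes did. Its brighter probe read -2.25, -1.57 and -1.90 in Ctrl, -2.06, -2.11 and -1.63 in RS, -1.33, -1.72 and -1.83 in DJ, and -1.75, -1.53 and -1.71 in DJ526. Ctrl replicate 1 was the lowest mouse and DJ replicate 1 the highest, and the diets overlapped. The F-test over the 4 diets gave it a limma adjusted p of 0.844, the lowest of the 7 genes. Its dimmer probe, which carries the same accession, read -2.93 to -2.07 over the 12 mice and ran against the brighter one (r = -0.52). The 2 probes also differed in sign for DJ and for DJ526 against Ctrl. For DJ the brighter probe gave a log2 fold change of 0.28 ± 0.20 (SE) and the dimmer -0.27 ± 0.20, neither past the test.

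Hmgcs1, a synthase of the cytosol, acts early in the mevalonate part of the pathway. Its signal was 4.35, 5.92 and 5.59 in Ctrl, 4.73, 4.96 and 5.95 in RS, 5.32, 5.84 and 5.62 in DJ, and 4.94, 6.00 and 5.32 in DJ526. Ctrl replicate 1 was again the lowest mouse, 3.14-fold below DJ526 replicate 2, the highest, and the diets overlapped.

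Idi1 converts isopentenyl diphosphate to dimethylallyl diphosphate. Its signal was 2.90, 5.09 and 4.82 in Ctrl, 3.53, 4.50 and 5.18 in RS, 4.66, 4.59 and 3.99 in DJ, and 4.09, 5.26 and 4.54 in DJ526. The lowest and highest mice were those of Hmgcs1, now 5.10-fold apart.

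Fdps joins these units into farnesyl diphosphate. It read 4.90, 7.09 and 7.05 in Ctrl, 5.65, 6.75 and 7.50 in RS, 6.41, 7.06 and 6.80 in DJ, and 6.37, 7.30 and 6.63 in DJ526. Ctrl replicate 1 was lowest and RS replicate 3 highest, 6.07-fold apart, and the 3 DJ mice lay inside the range of every other diet.

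Sqle, squalene epoxidase, acts in the part of the pathway that leads only to sterols, and it varied most. Its signal was 1.64, 4.46 and 4.52 in Ctrl, 2.08, 3.56 and 4.65 in RS, 3.63, 3.98 and 3.72 in DJ, and 2.86, 4.50 and 3.92 in DJ526. The lowest and highest of the 12 mice differed 8.10-fold, and the spread was 7.37-fold within Ctrl, 5.96-fold within RS, 3.12-fold within DJ526 and 1.27-fold within DJ.

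Lss closes the sterol rings to give lanosterol, and Cyp51 removes a methyl group from lanosterol. Lss read 0.02, 1.69 and 1.66 in Ctrl, 0.30, 0.79 and 2.01 in RS, 0.73, 1.24 and 0.67 in DJ, and 0.77, 1.93 and 1.04 in DJ526. Cyp51 read -1.10, 0.84 and 0.59 in Ctrl, -0.47, 0.11 and 0.98 in RS, 0.47, 0.85 and 0.30 in DJ, and -0.20, 1.04 and 0.39 in DJ526. For both genes Ctrl replicate 1 and RS replicate 1 were the lowest 2 mice, and no diet stood apart from another.

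**Figure D1:**
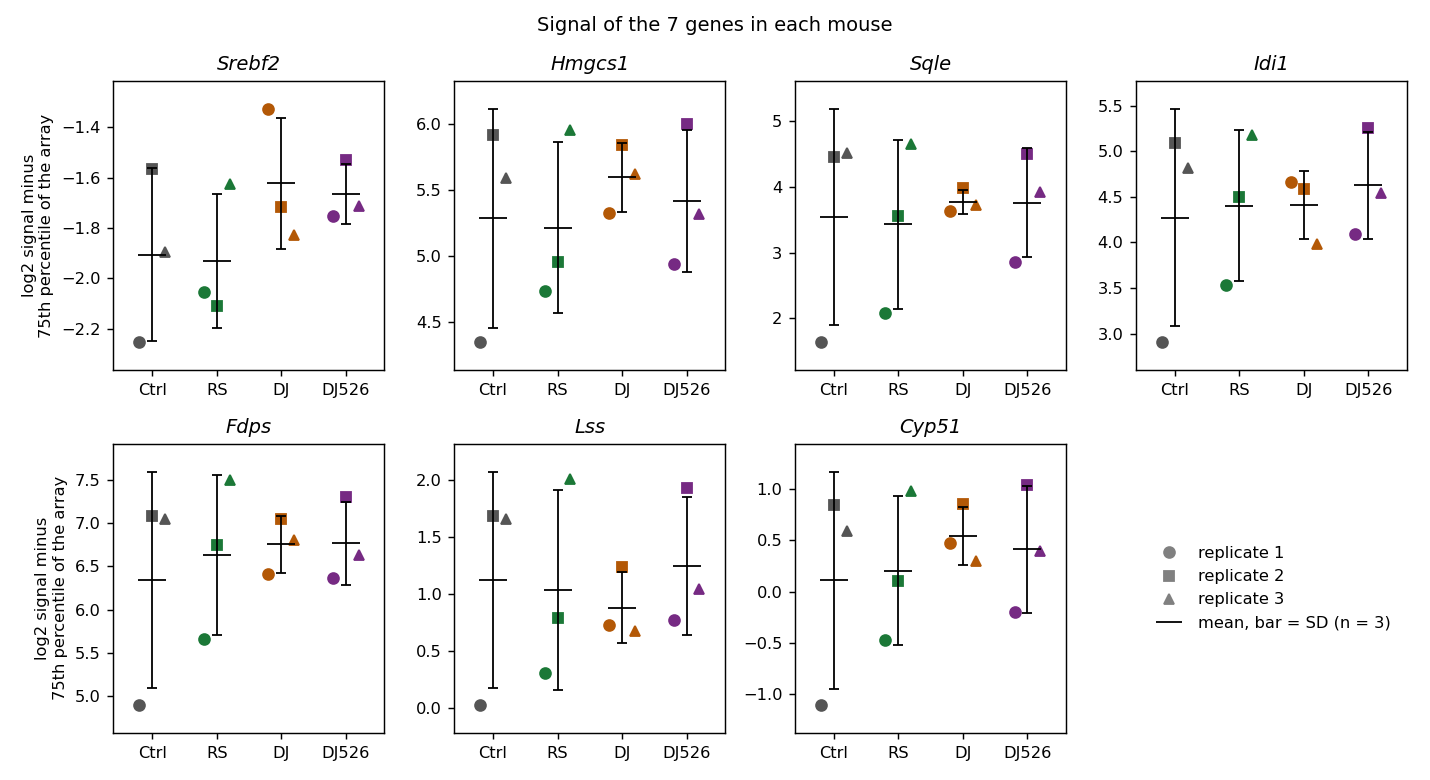
Log2 signal relative to the array's 75th percentile (y axis, a scale of its own in each panel) of the 7 genes in the 4 diets, with 1 point per mouse and a black bar for the mean and SD of 3 mice. In each panel the diets overlap, Ctrl replicate 1 is the lowest point, and for the 6 enzymes the 3 DJ mice lie closest together.

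The first question of the design is whether resveratrol, rice or the resveratrol-enriched rice changed these genes, and no change was detected in any of them. At an adjusted p of 0.05, limma called 0 of the 7 genes in the F-test over the 4 diets, where 0.00507% of the 39429 probes passed. None passed for RS, DJ and DJ526 against Ctrl, where 0%, 0% and 0.00507% of all probes passed, or for DJ526 against DJ (0.0101%), DJ526 against RS (0.00761%) and DJ against RS (0%). The same held for both rice diets against both starch diets (0%) and for the interaction of rice with resveratrol (0%). Before adjustment, too, 0 of the 7 genes had a p under 0.05 by limma or by the methods' t-test in these contrasts between diets. Of the 39429 probes, from 1391 (DJ against RS) to 4269 (DJ526 against Ctrl) did by limma. By the methods' t-test it was 1104 to 5103 probes in the same contrasts. In none of the 6 pairs of diets did any of the 7 genes have 3 mice all above or all below the other 3. Such a gap was found in 10.2% of all probes for RS and Ctrl, 9.39% for DJ and Ctrl, 20.8% for DJ526 and Ctrl, 18.5% for DJ526 and DJ, 11.1% for DJ526 and RS, and 6.37% for DJ and RS. With only 7 genes, of which the 6 enzymes covary closely, counts of 0 do not set them apart from all probes.

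The intervals of these differences were wide for the enzymes. For DJ526 against Ctrl, the log2 fold change was 0.42 ± 0.58 (SE, n = 3 against 3, limma adjusted p = 0.824) for Fdps and 0.22 ± 0.79 (adjusted p = 0.936) for Sqle. The 95% interval of Sqle ran from -1.52 to 1.96, so that a change of 2-fold in either direction could not be seen or excluded in 3 mice against 3. For Srebf2 the interval was -0.19 to 0.68. DJ526 against DJ gave 0.01 ± 0.58 for Fdps and -0.02 ± 0.79 for Sqle, and RS against Ctrl gave 0.29 ± 0.58 and -0.11 ± 0.79. The median over the 7 genes was -0.02 for RS, 0.28 for DJ and 0.24 for DJ526 against Ctrl, beside medians over all probes of 0.03, -0.02 and 0.02. These 3 comparisons share their Ctrl mice. Without Ctrl replicate 1 the 3 medians became -0.54, -0.31 and -0.33, so that the latter 2 changed sign without that mouse.

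**Figure D2:**
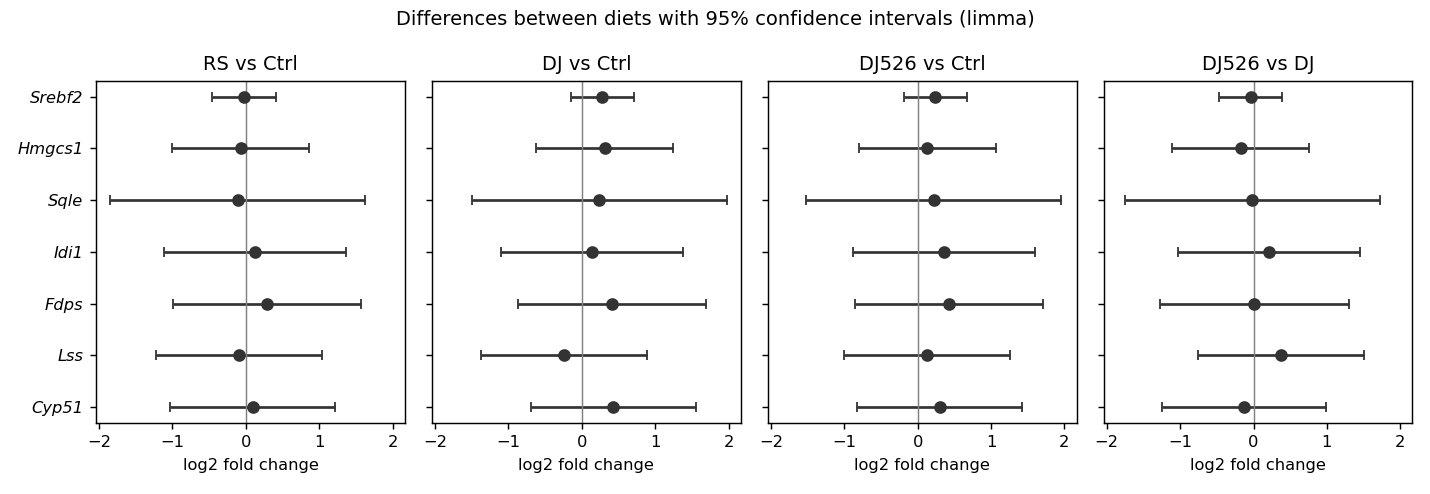
Log2 fold change (x axis) of each of the 7 genes in 4 comparisons (3 diets against Ctrl, and DJ526 against DJ), with points for the limma estimate and bars for its 95% confidence interval. The bars of all 7 genes cross 0 in all 4 panels, and those of Sqle, -1.52 to 1.96 for DJ526 against Ctrl, are the widest.

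No slide held Ctrl and DJ526 mice together. On the first slide DJ replicate 1 minus the mean of the 3 Ctrl mice was -0.40 to 0.58 over the 7 genes. On the second, the 2 DJ mice minus the 2 RS mice was above 0 for the 7 genes, at 0.27 to 1.03. On the third, the DJ526 mice minus RS replicate 3 was below 0 for the 7 genes, at -0.89 to -0.04. With slide as a block, a fit in which DJ526 meets Ctrl only through RS and DJ mice on shared slides, the median for DJ526 against Ctrl became -1.38, with no gene past the test.

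Differences between mice on 1 diet were large for these genes. The pooled SD within diets was 1.13 for Sqle, which is at percentile 99.4 of the 27271 probes well above background on all 12 arrays. It was 0.833 for Fdps (percentile 98.3), 0.804 for Idi1 (98.1), 0.733 for Lss (97.5), 0.726 for Cyp51 (97.4) and 0.604 for Hmgcs1 (95.7). For Srebf2 it was 0.261 (68.3), and for the median probe 0.190. Diet accounted for 5.94% of the variation of the median gene of the 7, beside 28.5% for the median probe. Means of 3 mice differ without any effect of diet, so that such a share is not by itself an effect. The 3 DJ mice were the least spread for each of the 6 enzymes (SD 0.181 in DJ against 1.65 in Ctrl for Sqle), and this difference in spread was not tested.

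These differences were shared between the genes. Over the 12 mice the 15 pairs of enzymes had Pearson r from 0.871 (Hmgcs1 and Idi1) to 0.966 (Hmgcs1 and Cyp51), with a median of 0.927, and Spearman rho from 0.832 to 0.958. Of 21 pairs computed, all 15 enzyme pairs passed a permutation test of r with 100000 permutations (adjusted p at most 0.00035 over the 21 pairs) and of rho (at most 0.00213), where 1e-05 is the smallest p before adjustment that the permutations can give. Taken as deviations from the mean of each diet, the 15 pairs had r of 0.907 to 0.979, and from the mean of each slide, 0.874 to 0.986. Leaving out the 2 mice farthest from the median of the first gene of a pair, which were Ctrl replicate 1 and RS replicate 1 in 14 of the 15 pairs, left r of 0.681 to 0.936. The covariation of the enzymes therefore did not rest on those 2 mice alone, though it fell without them.

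Srebf2 followed the enzymes less closely. Its 6 pairs had r of 0.583 (Lss) to 0.756 (Cyp51), and all 6 passed by r (permutation test, adjusted p 0.00505 to 0.0483) but 3, those with Hmgcs1, Idi1 and Cyp51, by rho. Its brighter probe had r = 0.70 with the mean of the other 6 genes and its dimmer probe r = -0.37. Among the enzymes Cyp51 lay closest to the mean of the other 6 genes (r = 0.986) and Lss farthest (0.905).

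**Figure D3:**
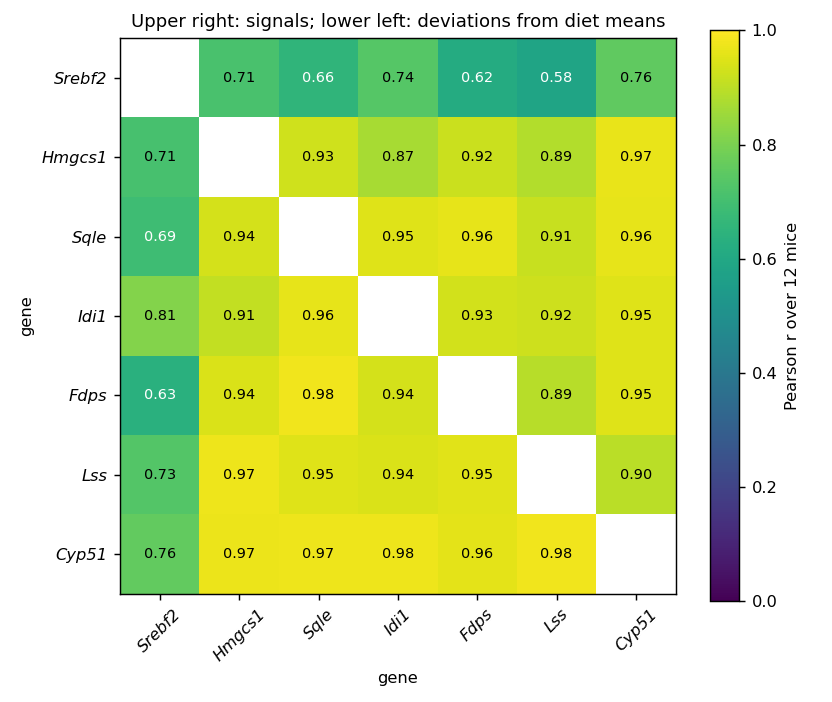
Pearson r over the 12 mice for each pair of the 7 genes, by colour and by number, with log2 signals above the diagonal and deviations from diet means below it. The 15 enzyme pairs lie between 0.871 and 0.966 above the diagonal, and the Srebf2 pairs, from 0.583 to 0.756, are the lowest.

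Ordered by the mean of the 7 genes, each centred and divided by its SD, the mice ran from Ctrl replicate 1 over RS 1, DJ526 1, RS 2, DJ 3, DJ526 3, DJ 1, Ctrl 3, DJ 2, Ctrl 2 and RS 3 to DJ526 replicate 2. Ctrl, RS and DJ526 each had 1 of the 3 lowest and 1 of the 3 highest mice, and the DJ mice lay between them. On average the 6 enzymes were 1.46 below their mean in Ctrl replicate 1, 0.94 below it in RS replicate 1, 0.80 above it in RS replicate 3 and 0.76 above it in DJ526 replicate 2 (log2). Diet held 5.41% of the variation of this mean, slide 12.4% and replicate number 50.8%. Groups of so few mice hold a share without any effect, and these shares were not tested. Its r with the share of spots well above background was -0.09 and with the 75th percentile of the array -0.15 (12 arrays, a description).

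Of the 4 adipocyte markers, Adipoq, Plin1 and Cfd were each highest in Ctrl replicate 1, RS replicate 1 and DJ replicate 2. Adipoq read -2.80, -2.96 and -3.41 in these mice and -6.82 to -5.56 in the other 9, Plin1 -4.04, -4.91 and -5.22 against -7.15 to -6.16, and Cfd -0.08, -1.15 and -1.04 against -8.49 to -4.10. Lep, the leptin gene, ran otherwise, with its lowest value in RS replicate 1 (-5.87) and its highest in RS replicate 3 (-4.57) and the DJ526 mice (-5.08 to -4.67). Of the 3 mice with high Adipoq, the first 2 were the lowest for the 7 genes and the third was above their middle. The summed signal of the 4 adipocyte markers was 0.0555 to 1.17 in Ctrl, 0.0493 to 0.630 in RS, 0.0781 to 0.630 in DJ and 0.0596 to 0.0701 in DJ526, with r = -0.60 against the mean of the 7 genes. None of the 4 was well above background on all 12 arrays, and their part in the covariation was not tested. Summed markers of the other cell types had r of -0.15 to 0.42.

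Most other enzymes of the pathway followed the same order of mice. Of 15 on the list, 12 had r above 0.8 with the mean of the 7 genes (median 0.86), where 0.991% of the 15545 other genes well above background on all arrays did (median 0.01). Dhcr7 and Sc5d, which act at the end of the pathway, had r of 0.97 and 0.96, and Nsdhl 0.96. Mvd (0.81) and Erg28 (0.86) were among the 12, and Mvk (0.71) and Acat2 (-0.16) were not. Part of this rested on Ctrl replicate 1 and RS replicate 1, the mice farthest from the median of that mean. Without them r was 0.90 for Dhcr7, 0.86 for Sc5d and 0.85 for Nsdhl. Mvd then had 0.77 and Erg28 0.69, both under 0.8, and Mvk 0.60 and Acat2 0.14. By limma 0 of the 15 passed in any of the comparisons, with a lowest adjusted p of 0.781 in the F-test (Acat2).

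Other targets and the regulators of SREBP2 were less uniform. Of 11, 1 had r above 0.8, Rdh11 (0.97), a retinol dehydrogenase. Scap had r = 0.75, Insig1 0.72, Stard4, which carries sterols between membranes, 0.58 and Insig2 0.21. Without Ctrl replicate 1 and RS replicate 1, Scap had 0.44, Insig1 0.75, Stard4 0.43 and Insig2 0.23. Npc1, which moves cholesterol out of lysosomes, and the protease gene Mbtps1 ran the other way (-0.68 and -0.60). None of the 11 passed the F-test (lowest adjusted p 0.760, Insig2).

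Genes of fatty acid synthesis, known targets of SREBP1c, also shared the order of mice. Of 10, 6 had r above 0.8, among them Acss2 (0.93), which makes acetyl-CoA from acetate, Acly (0.89) and Fasn, the fatty acid synthase (0.83). Fasn read 2.02, 4.42 and 4.44 in Ctrl, 2.13, 3.18 and 3.94 in RS, 2.35, 3.73 and 2.89 in DJ, and 2.17, 3.95 and 3.05 in DJ526, so that replicate 1 was its lowest mouse on each diet. Scd1 (0.85) was among the 6, Acaca (0.76) and Elovl6 (0.72) fell short, and Srebf1, which encodes SREBP1c itself, had r = 0.16. Without Ctrl replicate 1 and RS replicate 1, however, r was 0.70 for Srebf1, 0.69 for Acaca and 0.69 for Elovl6. Of the 6, Acly then had 0.83, Acss2 0.78, Fasn 0.77 and Scd1 0.71. None of the 10 passed the F-test (lowest adjusted p 0.879, Srebf1).

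Genes of cholesterol export, storage and bile acid synthesis did not share it. Of 10, 0 had r above 0.8 and 6 were below 0 (median -0.07), with Scarb1, a receptor for HDL, at -0.72. The sterol exporters Abcg5 and Abcg8 had r of 0.28 and 0.40, and Soat2, which esterifies cholesterol, had -0.22. Cyp7a1, the rate-limiting enzyme of bile acid synthesis, had r = 0.07 and an unadjusted F-test p of 0.0435 (limma adjusted p = 0.630). It read 1.28, 1.36 and 2.16 in Ctrl, 1.19, 1.06 and 1.72 in RS, 1.50, 0.17 and -0.45 in DJ, and 0.40, 0.64 and 0.77 in DJ526. The means were 1.60, 1.32, 0.40 and 0.60 in that order. DJ526 did not overlap Ctrl (limma adjusted p = 0.424). Such a gap was found in 6 of these 10 genes and in 20.8% of all probes. DJ, with the lowest mean, overlapped Ctrl through replicate 1 (limma adjusted p = 0.857). None of the 10 passed. The 9 clock genes well above background on all arrays had r of -0.41 to 0.39, with none above 0.8.

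**Figure D4:**
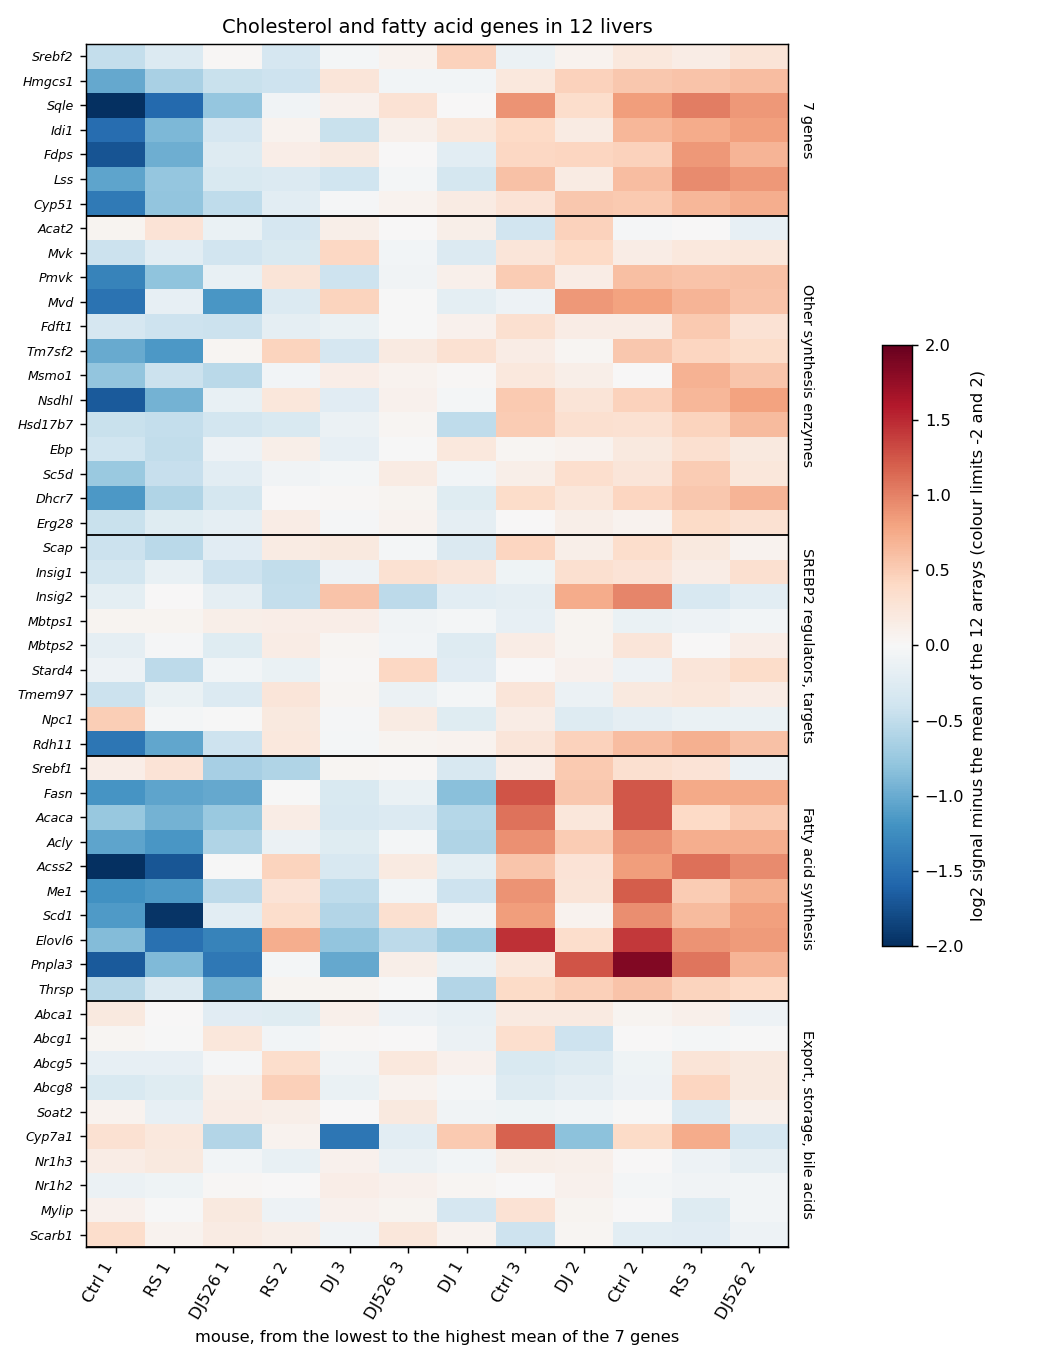
Log2 signal minus the mean of the 12 arrays (colour, red above and blue below, limits -2 and 2) for the 7 genes and genes of 4 related lists, by mouse, ordered from the lowest to the highest mean of the 7 genes. Most enzymes of both synthesis pathways run from blue in Ctrl replicate 1 to red in DJ526 replicate 2, and the export and storage genes show no such order.

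Over the 15545 named genes outside the 7 that were well above background on all arrays, the 10 closest to their mean were Rdh11 (r = 0.968), Chrna4 (0.967), Dhcr7 (0.965), Sytl5 (0.964), Sc5d (0.956), Nsdhl (0.956), Aqp8 (0.944), Pmvk (0.934), Acss2 (0.934) and Fkbp14 (0.928), over 12 mice. As these were picked for their r, the values are a description. Of the 10, 6 stood on the lists above. Chrna4, a subunit of the nicotinic acetylcholine receptor, read -2.99, 1.38 and 1.09 in Ctrl, -2.32, -0.18 and 1.59 in RS, -0.65, 1.09 and 0.13 in DJ, and -0.64, 1.70 and 0.50 in DJ526. As with Sqle, Ctrl replicate 1 and RS replicate 1 were its lowest mice. Tat, a liver enzyme of tyrosine breakdown on the hepatocyte list, had r = 0.87, while Alb, the albumin gene, had 0.02. Without Ctrl replicate 1 and RS replicate 1, Tat had r = 0.60 and Alb 0.21.

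**Figure D5:**
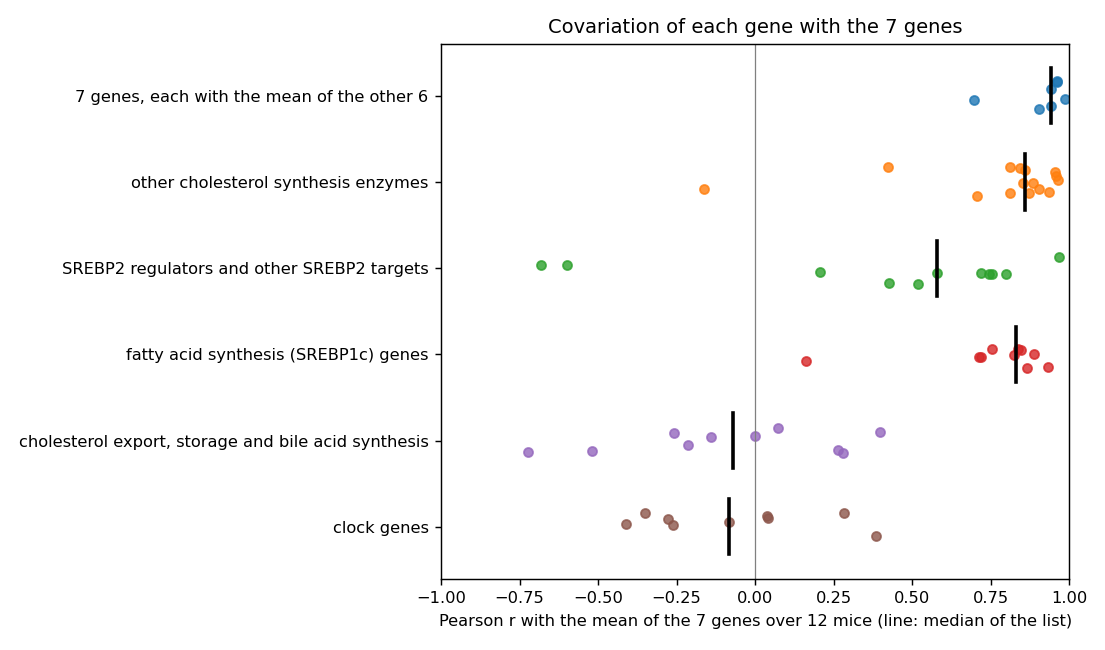
Pearson r over the 12 mice (x axis) of each gene with the mean of the 7 genes, by list, with 1 point per gene and a black line for the median of the list. Most points of the synthesis lists lie above 0.7, with list medians of 0.86 and 0.83, and those of the export and clock lists spread around 0.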

How the data were processed

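Liver RNA of 12 mice was measured on Agilent 4X44K v2 one-colour arrays. The authors deposited the Feature Extraction output (version 11.5.1.1, per the file headers) with intensity values of each spot on a linear scale, and quality flags, alongside a deposited table of globally normalized intensity, which was the processed signal times 1 factor per array. Here the processed signals of the spots of a probe were averaged without control and outlier spots, put on the log2 scale and scaled to the 75th percentile of the array. Probes were named through RefSeq accessions (27508 of 39429), and the brightest probe stood for a gene. limma (3.58.1, R 4.3.3; lmFit, eBayes with trend, 1 mean per diet) was fitted to all probes with Benjamini-Hochberg adjustment at 0.05. Other genes named were, per list, up to 4 with the smallest F-test p, the 10 most alike in pattern, Insig1 and Srebf1. Some genes of the lists are counted in them but not reported here by name. Scap, Acly, Fasn, Scarb1, the adipocyte markers, Tat and Alb were named after their values were seen. The 7 genes and the lists were chosen with earlier results of these data known. Pair correlations used Python 3.11.15 and numpy 2.4.6. The code was tested on simulated data. Depth is signal over background, and the number of arrays limits the precision.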

Additional observations from a re-analysis of the deposited data

How the results depend on the processing

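Under the other settings the 7 genes were tested by limma in the F-test and in RS, DJ and DJ526 against Ctrl. None passed (lowest adjusted p 0.448, with slide as a block). For the remaining comparisons single genes were not looked up in these settings, apart from the methods' t-test. The mean of all probes of a gene was not tested. The covariation of the 6 enzymes kept its sign in each setting tried. Their 15 pairs had r of 0.865 to 0.965 after quantile normalization and 0.864 to 0.965 scaled to the median of the array. In the deposited table they had 0.871 to 0.965. Taken as deviations from the mean of each replicate number they had 0.754 to 0.967, which reached lowest. Leaving out 1 mouse gave 0.788 to 0.978. The pairs with Srebf2 then ran from 0.356 (without Ctrl replicate 1) to 0.867.

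Whether the replicate numbers pair the mice is not known. Deviations from the diet means had r of -0.35 to 0.41 between same-numbered arrays and -0.42 to 0.44 between others. The medians were 0.033 and -0.006. Of 12 arrays, 6 were closest to an array of their own number, a count that was not tested. Replicate number held 50.8% of the variation of the mean of the 7 genes. With the replicate block the median r of the 21 pairs was 0.861 in place of 0.915, and called probes were 0 for DJ526 against Ctrl, DJ and RS and 0 for any diet.

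With slide as a block, called probes were 1 for RS and 8 for DJ against Ctrl, 0 for DJ526 against Ctrl, 40 for DJ526 against RS, 3 for rice against starch, 17 for the difference between resveratrol effects and 11 for any diet. The median over the 7 genes was then -1.38 for DJ526 against Ctrl, -1.32 against DJ, -0.57 against RS and -0.79 for the difference between effects. Signs turned for DJ526 against Ctrl in Hmgcs1 (-1.38), Sqle (-1.83), Idi1 (-0.44), Fdps (-1.39), Lss (-1.57) and Cyp51 (-0.96), and for RS against Ctrl in Srebf2 (0.27), Fdps (-0.66) and Cyp51 (-0.39). The cause was not tested.

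A sample table supplied with the study pairs the RS and DJ arrays the other way round from the labels used here. Exchanging them turned RS against Ctrl to 0.28 for Srebf2, 0.31 for Hmgcs1 and 0.24 for Sqle, and DJ against Ctrl to -0.0244, -0.0698 and -0.11. With normexp, Hmgcs1 for RS was 0.0932.

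Called probes for DJ526 against Ctrl, DJ and RS, where 2, 4 and 3 were called, became 0, 1 and 1 with normexp (1 for any diet), 9 and 27 for the first 2 after quantile normalization (5 for any diet), 4 and 10 scaled to the median, 4, 14 and 8 with dim probes left out, and 0, 0 and 0 both with only the groups compared and by the methods' t-test after adjustment. Without the variance trend they were 0, 11 and 1, and 0 for any diet.

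Leaving out 1 mouse gave 0 to 4 called probes for RS and 0 to 1 for DJ against Ctrl, 0 to 166 for DJ526 against Ctrl, 0 to 107 against DJ, 0 to 28 against RS, 0 to 18 for the difference between effects and 0 to 52 for any diet, the highest of the DJ526 counts and of any diet without RS replicate 3. For RS against Ctrl, the log2 fold change then ran from -0.20 to 0.15 for Srebf2, -0.54 to 0.25 for Hmgcs1, -1.06 to 0.57 for Sqle, -0.55 to 0.56 for Idi1, -0.43 to 0.78 for Fdps, -0.64 to 0.28 for Lss and -0.51 to 0.46 for Cyp51. For DJ it ran from -0.16 to 0.63 for Hmgcs1, -0.71 to 0.73 for Sqle, -0.54 to 0.55 for Idi1, -0.31 to 0.79 for Fdps, -0.79 to 0.0387 for Lss and -0.18 to 0.80 for Cyp51. For DJ526 it ran from -0.33 to 0.45 for Hmgcs1, -0.73 to 0.71 for Sqle, -0.33 to 0.76 for Idi1, -0.30 to 0.80 for Fdps, -0.43 to 0.41 for Lss and -0.31 to 0.67 for Cyp51. The lowest value of each of these was without Ctrl replicate 1.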

Other observations

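The clock gene Per2, a repressor in the circadian feedback loop, had the lowest F-test p on the lists examined (limma adjusted p = 0.204). It read -0.48, -0.56 and -0.32 in Ctrl, -0.62, -0.45 and -0.30 in RS, -1.33, -1.53 and -1.59 in DJ, and -1.11, -0.42 and -0.55 in DJ526. The 3 DJ mice lay below all 9 others. Their log2 difference to Ctrl of -1.03 ± 0.17 (SE) did not pass the test over all probes (limma adjusted p = 0.640). By the sample table that exchanges RS and DJ, these 3 would be RS mice. Per2 had r = 0.04 with the mean of the 7 cholesterol genes, Clock 0.28, Per1 -0.08 and Per3 -0.26.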
